A study of Mus musculus with 6 samples.

Results

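The Myc, Max and Mxd network is a set of transcription factors that share 1 DNA-binding partner. Its 10 genes were taken by symbol, Myc, Mycn, Mycl, Max, Mxd1, Mxd3, Mxd4, Mxi1, Mnt and Mga, with every probe set that the platform annotation assigns to one of them. That gave 27 of the 45037 probe sets tested and 10 of 18193 named genes. RNA came from adult mouse hematopoietic stem cells (HSCs), gated as lin-, sca1+, ckit+, CD150+ and CD48- cells, and was read on 6 single-colour arrays. A description field of the samples speaks of embryos, against their other labels, and was set aside. There were 3 arrays of PU.1 ki/ki knock-in mice and 3 of wild-type mice, and the comparison asked how transcripts differed between these genotypes. PU.1, encoded by Spi1, is an ETS factor of blood development, and the published model carries mutations in the site through which PU.1 binds an upstream element of its own gene. The labels do not give the strain, the sex, or whether replicates were separate animals or pools, so a p-value here covers the spread among these arrays, part of which may be technical.

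Myc proteins bind DNA as dimers with Max and activate genes of growth, ribosome production and metabolism. The Mxd proteins, Mnt and Mga also pair with Max and compete with Myc at the same sites, where most of them recruit repressor complexes. In the bone marrow Myc is known for the balance between self-renewal and differentiation of stem cells, and Mxd proteins for the exit from cycling as cells mature. The dimers favour an E-box, CACGTG, which reads the same on both strands. Of 300-base promoter windows in the RefSeq table (GRCm38.p6), from 250 bases before to 50 after a start site, 7.15% of 32851 held it. Windows of 9 of the 10 network genes were in that table, 11 in all. It held none for Myc, so the Myc promoter was not examined. The windows of Max, Mnt and Mxd4 held the E-box, once each, or 3 of the 11 windows. The stretches around these matches are shown because they are the places in the network's own promoters that carry the letters its dimers read. They run 5′ to 3′ on the strand of the gene, with the E-box in capitals. The Max stretch is chr12:76962229-76962291 (minus strand), that of Mnt chr11:74830761-74830846 (plus strand) and that of Mxd4 chr5:34187884-34187960 (minus strand).
Max: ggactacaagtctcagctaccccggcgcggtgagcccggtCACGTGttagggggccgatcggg
Mnt: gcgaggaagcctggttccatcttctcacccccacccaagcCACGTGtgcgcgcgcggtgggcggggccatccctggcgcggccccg
Mxd4: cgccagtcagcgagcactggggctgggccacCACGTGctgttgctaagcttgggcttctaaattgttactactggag
The E-box of Max lies closest to a start site, with its first base at -3 counted from that site, against -123 in Mnt and -219 in Mxd4. A match is a description of the letters and not a bound site. The core of the PU box read by PU.1, GAGGAA on either strand, was in 1 window each of Max, Mnt and Mxi1. That is 3 of the 11 windows of network genes, against 28.3% of all windows.

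Intensities below are the deposited linear values, with a table minimum of 10, and differences are log2(intensity + 1) in PU.1 ki/ki minus wild type. Signal loss was unequal among the arrays, and members low on single wild-type arrays are pointed out below. Bright probe sets with at least a 4-fold drop below the median of the other arrays made up 0.119 to 0.219% on PU.1 ki/ki arrays, against 1.12, 11.5 and 11.3% on wild-type replicates 1, 2 and 3. A bright probe set had a median of at least 512 on the other 5 arrays. Among the members only 7 or 8 probe sets per array were bright by this definition, so the others could not meet the rule. Of these, 1 value met it, that of an Mxd1 probe set on wild-type replicate 1. Xist, which coats the inactive X chromosome, read 6496, 4162 and 5667 on its brightest probe set in PU.1 ki/ki, against 6955, 16 and 2322 in wild type. Spi1, the targeted gene, read 170, 212 and 161 in PU.1 ki/ki against 158, 195 and 199 in wild type, so its groups overlapped.

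Over all 45037 probe sets, 0 (0%) passed an adjusted p of 0.05 in limma, 3731 (8.28%) had an unadjusted p under 0.05, and 5438 (12.1%) had groups that did not overlap. Of the 27 network probe sets, 0 passed, 3 (11.1%) had an unadjusted p under 0.05 and 4 (14.8%) had no overlap, shares near those of all probe sets. Signs were even, with 14 probe sets on the higher side, 13 on the lower side and a median of 0.01. Differences were under 0.5 in size for 18 of the 27. On the brightest probe set of each gene 5 genes were higher and 5 lower. The 4 probe sets without overlap were those of Myc and 1 of Mxd1, both higher in PU.1 ki/ki, and 1 each of Mycl and Mga, both lower. Over all probe sets 6.62% were separated upward and 5.46% downward.

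**Figure D1:**
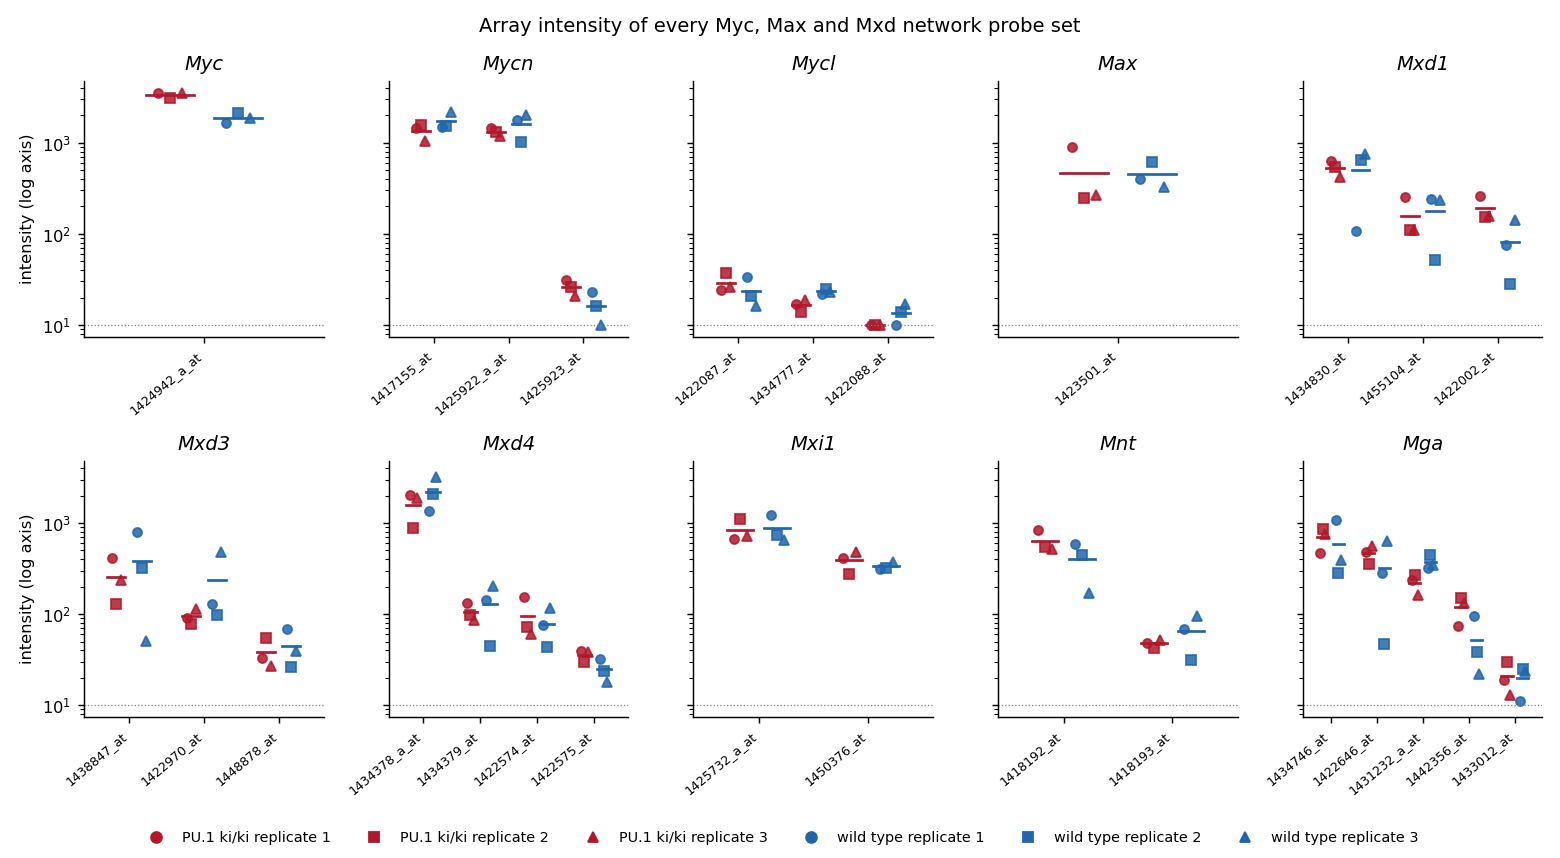
Intensity on a log axis for each network probe set on each array, with PU.1 ki/ki in red left of wild type in blue, a symbol for each replicate and a bar at the group mean. The dotted line is the table minimum of 10. The 3 PU.1 ki/ki values of Myc, 3084 to 3553, all lie above the wild-type values, 1668 to 2115, while the groups overlap on both bright Mycn probe sets and on those of Max, Mxd3, Mxd4, Mxi1 and Mnt.

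Myc, the growth-promoting factor of the network, read 3482, 3084 and 3553 in PU.1 ki/ki HSCs and 1668, 2115 and 1867 in wild-type HSCs on its only probe set, 1424942_a_at. All PU.1 ki/ki arrays lay above all wild-type arrays, and the lowest PU.1 ki/ki value was 1.46 times the highest wild-type value. The means were 3373 ± 253 for PU.1 ki/ki arrays and 1883 ± 224 for wild-type arrays (SD, n = 3 arrays each). The difference was 0.84 ± 0.15 (SE, 95% interval 0.47 to 1.22), or 1.80-fold, with a limma adjusted p of 0.4305 over all probe sets and an unadjusted p of 0.00213, the rank 218 of 45037. A two-sided exact permutation test over 20 regroupings gave p = 0.1, the smallest that 3 arrays against 3 allow. The result thus did not pass the threshold, although the groups were apart on every array. In sorted bulk cells, more cells with the transcript and more RNA per cell in PU.1 ki/ki cannot be told apart.

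The Myc difference was of similar size under each setting tried. It lay between 0.76 and 0.93 with any 1 array left out, and was 1.01 against wild-type replicate 1 alone, the wild-type array with the fewest lost probe sets. It was 0.75 after a further quantile normalization and 0.74 after centring arrays on their medians, where the median over all probe sets was itself -0.10, against 0.00 unscaled. Its adjusted p stayed above 0.05 throughout, from 0.169 without wild-type replicate 1 to 0.882 without PU.1 ki/ki replicate 2. Only 1 probe set reads Myc, so no other measurement of it on the arrays bears on the difference.

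Mycn, the N-Myc paralogue that acts beside Myc in stem cells, had 2 bright probe sets and 1 dim one, dim meaning a mean log2 value under the median of all probe sets. Probe set 1417155_at read 1455, 1578 and 1046 in PU.1 ki/ki, against 1483, 1520 and 2168 in wild type (-0.34 ± 0.25, adjusted p = 0.723, limma). Probe set 1425922_a_at read 1466, 1303 and 1183 in PU.1 ki/ki against 1760, 1030 and 2040 in wild type (-0.24 ± 0.30, adjusted p = 0.828). Both overlapped between groups, had their highest value on wild-type replicate 3, and kept a negative sign with any 1 array left out. The dim probe set, 1425923_at, had the opposite sign, with 31, 26 and 21 in PU.1 ki/ki against 23, 16 and 10 in wild type (0.69 ± 0.34, adjusted p = 0.645). Its wild-type replicate 3 was at the table minimum, so the size of that difference is uncertain.

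Mycl, the L-Myc paralogue, was near the table minimum on all 3 of its probe sets. The brightest, 1422087_at, read 24, 37 and 26 in PU.1 ki/ki and 34, 21 and 16 in wild type (0.32 ± 0.33, adjusted p = 0.791, limma). Probe set 1434777_at read 17, 14 and 19 in PU.1 ki/ki against 22, 25 and 23 in wild type, without overlap (-0.47 ± 0.16, adjusted p = 0.565). These levels are close enough to the minimum that little can be read from the separation. Probe set 1422088_at was at 10 on every PU.1 ki/ki array and on 1 wild-type array, so its values have no order there.

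Max, the shared partner of the other proteins, read 892, 245 and 265 in PU.1 ki/ki and 399, 622 and 331 in wild type on its only probe set, 1423501_at. The spread within PU.1 ki/ki was wider than the gap between the group means, 467 ± 368 for PU.1 ki/ki arrays and 451 ± 152 for wild-type arrays (SD, n = 3 each). The difference was -0.17 ± 0.59 (95% interval -1.69 to 1.35, limma adjusted p = 0.958), so the log2 difference ran opposite to that of the linear means, and neither a higher nor a lower level of Max of the size seen for Myc was outside the interval. Leaving out single arrays moved it between -0.77 and 0.16.

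**Figure D2:**
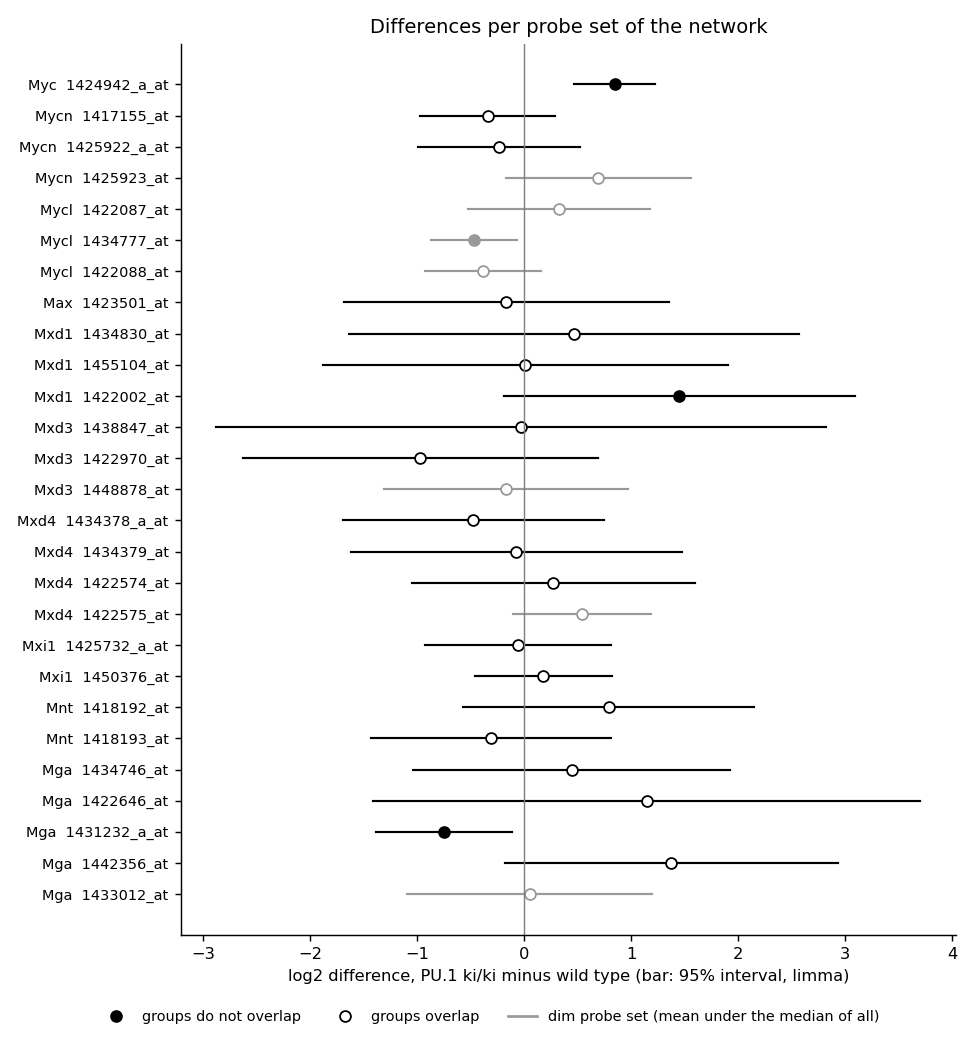
Difference in log2(intensity + 1), PU.1 ki/ki minus wild type, for the 27 network probe sets, with 95% intervals from limma. Filled points mark groups that do not overlap and grey marks dim probe sets. The interval lies clear of 0 for 3 probe sets, of Myc (0.47 to 1.22), Mycl (-0.87 to -0.07) and Mga (-1.38 to -0.11), before adjustment for the number tested.

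The Mxd proteins, Max-binding repressors that oppose Myc, had 12 probe sets over 4 genes, 6 higher and 6 lower, with 1 (8.33%) free of overlap and 0 at an unadjusted p under 0.05, against 12.1% and 8.28% of all probe sets. Mxd1, which is induced as blood cells mature, was the only Mxd gene with all its probe sets on the higher side, at 0.01 to 1.45. Probe set 1422002_at read 262, 155 and 156 in PU.1 ki/ki and 75, 28 and 142 in wild type (1.45 ± 0.64, 95% interval -0.19 to 3.09, adjusted p = 0.627, limma). Its groups were apart by a small gap, with 155 as the lowest in PU.1 ki/ki against 142 as the highest in wild type. Without the low wild-type replicate 2 the difference was 0.84. The brightest Mxd1 probe set, 1434830_at, read 627, 539 and 418 in PU.1 ki/ki against 107, 652 and 759 in wild type (0.47 ± 0.82, adjusted p = 0.886). The value of 107 on wild-type replicate 1 is the one that met the rule for lost signal, and without that array the difference turned to -0.43. Probe set 1455104_at read 251, 109 and 111 in PU.1 ki/ki against 240, 52 and 237 in wild type and differed by 0.01 ± 0.74. The 3 probe sets of Mxd1 thus ranked the wild-type arrays differently, with the lowest value on replicate 1 for the brightest and on replicate 2 for the others.

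Mxd3, the member of the group linked to proliferating precursors, was lower on its 3 probe sets by very unequal amounts. Its brightest, 1438847_at, read 409, 129 and 235 in PU.1 ki/ki and 788, 324 and 51 in wild type (-0.03 ± 1.11, limma adjusted p = 1). The wild-type arrays enclosed the PU.1 ki/ki arrays, and the difference was -1.12 when wild-type replicate 3 was left out and 0.84 when replicate 1 was. Probe set 1422970_at read 90, 78 and 115 in PU.1 ki/ki against 130, 98 and 482 in wild type (-0.97 ± 0.65, adjusted p = 0.706), and without the high value on wild-type replicate 3 it was -0.27. The third, 1448878_at, read 33, 54 and 27 in PU.1 ki/ki against 68, 26 and 39 in wild type (-0.17 ± 0.44). On Mxd3, then, wild-type replicate 3 was the lowest array on 1 probe set and the highest on another.

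Mxd4, expressed in resting and differentiating cells, had a bright probe set and 3 dimmer ones with both signs among them. The bright one, 1434378_a_at, read 2032, 881 and 1876 in PU.1 ki/ki and 1354, 2088 and 3204 in wild type (-0.48 ± 0.48, adjusted p = 0.787, limma). The lowest array was PU.1 ki/ki replicate 2 and the highest wild-type replicate 3, and without these the difference was -0.09 and -0.17. The other 3 probe sets averaged under 200 on each group and differed by -0.07, 0.27 and 0.54, all with overlap.

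Mxi1, the Mxd family member first found as a Max interactor, had small differences on both its probe sets. Probe set 1425732_a_at read 665, 1117 and 716 in PU.1 ki/ki and 1233, 740 and 658 in wild type, a difference of -0.06 ± 0.34 (95% interval -0.92 to 0.81, limma adjusted p = 0.986). Probe set 1450376_at read 417, 273 and 481 in PU.1 ki/ki against 315, 322 and 371 in wild type, a difference of 0.18 ± 0.25 (95% interval -0.46 to 0.82, adjusted p = 0.845). The second interval does not reach 0.84, the value for Myc, in either direction, while the first does on the lower side.

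Mnt, a widely expressed Max partner that represses Myc targets, had probe sets of opposite sign. Probe set 1418192_at read 832, 547 and 521 in PU.1 ki/ki and 596, 451 and 170 in wild type (0.79 ± 0.53, 95% interval -0.57 to 2.15, adjusted p = 0.707, limma). Most of this difference came with 1 array, since it was 0.26 without wild-type replicate 3 and 0.05 against wild-type replicate 1 alone. The dimmer probe set, 1418193_at, read 48, 43 and 52 in PU.1 ki/ki against 69, 31 and 96 in wild type (-0.31 ± 0.44, adjusted p = 0.851), and there wild-type replicate 3 was the highest of the 6.

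Mga, a large protein that joins a Max-binding domain to a T-box domain and sits in a Polycomb-type complex, had 5 probe sets, 4 higher and 1 lower. The brightest, 1434746_at, read 472, 862 and 751 in PU.1 ki/ki and 1088, 280 and 396 in wild type (0.45 ± 0.58, adjusted p = 0.834, limma). Its sign turned against wild-type replicate 1 alone, at -0.69. Probe set 1422646_at read 481, 353 and 556 in PU.1 ki/ki against 285, 47 and 641 in wild type (1.14 ± 1.00, adjusted p = 0.765), and was 0.09 without wild-type replicate 2, the array with the value of 47. The probe set without overlap, 1431232_a_at, ran the other way, with 238, 266 and 163 in PU.1 ki/ki against 323, 442 and 344 in wild type (-0.75 ± 0.25, 95% interval -1.38 to -0.11, adjusted p = 0.565). It stayed between -0.89 and -0.54 with any 1 array left out. Probe set 1442356_at read 74, 150 and 132 in PU.1 ki/ki against 95, 38 and 22 in wild type (1.38 ± 0.61, adjusted p = 0.627). It was low on wild-type replicates 2 and 3 and differed by 0.26 against replicate 1 alone. The dim 1433012_at differed by 0.05. The probe sets of Mga therefore gave no common direction.

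Disagreement between probe sets of 1 gene was common in the whole table. Of 9010 genes with several probe sets 59.8% held both signs, and of the 8 network genes with several 6 did, the exceptions being Mxd1 and Mxd3. For the network genes other than Myc, the 26 probe sets split into 13 higher and 13 lower, with 2 (7.69%, against 8.28% of all probe sets) at an unadjusted p under 0.05 and 3 (11.5%, against 12.1%) without overlap. With any 1 array left out, 17 of the 27 probe sets kept their sign, including all 7 of Myc, Mycn and Mycl and 5 of the 12 of the Mxd genes.

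**Figure D3:**
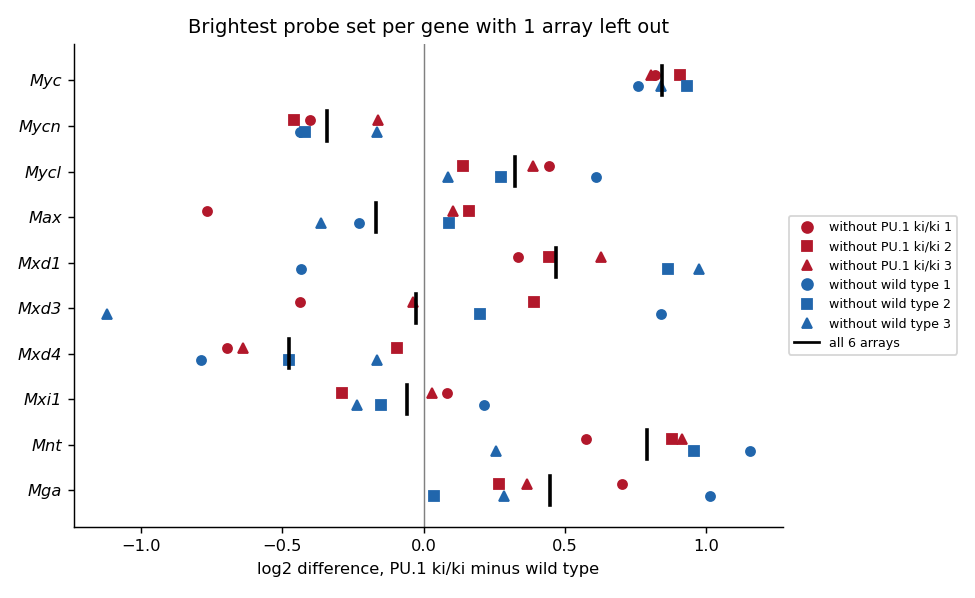
Difference in log2(intensity + 1), PU.1 ki/ki minus wild type, for the brightest probe set of each gene with all 6 arrays (black line) and with each array left out (red symbols for PU.1 ki/ki arrays, blue for wild type). Myc stays between 0.76 and 0.93, whereas Max, Mxd1, Mxd3 and Mxi1 fall on both sides of 0.

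By a rule on likeness, 5 genes followed the Myc pattern most closely, among 6348 other genes with a mean intensity of at least 200. Likeness was Pearson's r of log2 values with Myc over the 6 arrays, given as a description, and since Myc separates the genotypes it picks genes that do so too. Lsp1, a leukocyte actin-binding protein, had r = 0.986 and read 1344, 780 and 1104 in PU.1 ki/ki against 130, 290 and 263 in wild type. Snd1, a nuclease-domain coactivator, had r = 0.979 and read 1069, 1069 and 1196 in PU.1 ki/ki against 731, 843 and 724 in wild type. The carbonic anhydrase gene Car3 had r = 0.977, with 570, 464 and 450 in PU.1 ki/ki against 71, 185 and 86 in wild type. The lowest array was wild-type replicate 1 for Lsp1 and Car3, as for Myc, and replicate 3 for Snd1. Rdx, which links actin to the membrane, had r = 0.976, and Sos1, an activator of Ras, had r = 0.973 with 433, 416 and 464 in PU.1 ki/ki against 246, 248 and 242 in wild type. Of these 5 genes 0 passed, and the lowest adjusted p was 0.4004, for Sos1 (0.83 ± 0.11, limma). Among the brightest probe sets of the network itself, r with Myc was at most 0.518, for Mnt, and at least -0.599, for Mycn.

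Genes that Myc is known to activate lay on both sides of 0. The list of ribosome biogenesis and translation had 26 of 28 genes measured. Of these, 16 were higher and 10 lower, and the median was 0.14. That of metabolism and cell cycle had 27 of 30, 17 higher and 10 lower, with a median of 0.08. Over all 18193 genes 52.2% were higher and the median was 0.01, and over the 11049 genes whose brightness lay above the median of all probe sets these were 57.9% and 0.12. The groups did not overlap for 2 and 3 genes of the lists (7.69% and 11.1%), against 12.8% of all genes, and 0 passed in either. Wdr43, a nucleolar protein of ribosome assembly, read 957, 948 and 1051 in PU.1 ki/ki against 596, 212 and 125 in wild type (1.97 ± 0.60, adjusted p = 0.540, limma). It was lowest on wild-type replicates 2 and 3 and differed by 0.72 against replicate 1 alone. Prmt5, an arginine methyltransferase, read 739, 696 and 870 in PU.1 ki/ki against 466, 183 and 353 in wild type (1.29 ± 0.38, adjusted p = 0.529), and the amino acid transporter gene Slc7a5 read 531, 521 and 440 in PU.1 ki/ki against 367, 254 and 117 in wild type (1.16 ± 0.45). Both had no overlap, and Slc7a5 differed by 0.70 without wild-type replicate 3.

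Other classic targets had the opposite sign. Odc1, the first enzyme of polyamine synthesis, read 2510, 2321 and 1931 in PU.1 ki/ki against 3183, 2868 and 2686 in wild type, without overlap (-0.37 ± 0.16, adjusted p = 0.613, limma). Nolc1, a nucleolar phosphoprotein, read 1034, 1084 and 625 in PU.1 ki/ki against 1157, 2633 and 1565 in wild type, also without overlap (-0.92 ± 0.39, adjusted p = 0.618), and -0.60 without wild-type replicate 2. Of the remaining genes named by the rule, Rcl1 differed by 1.02, Bop1 by -0.77 and Tfrc, the transferrin receptor, by -0.51, all with overlap. The median level of the ribosome list, relative to each gene's mean over the arrays, was 0.33, 0.18 and -0.18 in PU.1 ki/ki and 0.07, -0.46 and 0.15 in wild type. The lowest of the 6 was wild-type replicate 2, one of the arrays with lost signal, and the groups overlapped.

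Of 14 genes that Myc is known to repress, 5 were higher and 9 lower, with a median of -0.10 and 0 passing. Ndrg1, a stress-response gene, read 2265, 2457 and 3004 in PU.1 ki/ki against 992, 1508 and 1439 in wild type (0.99 ± 0.23, adjusted p = 0.482, limma). It was the only gene of the list without overlap (7.14%, against 12.8% of all genes), and its 3 PU.1 ki/ki values lay above its wild-type values, as for Myc. Btg1, an antiproliferative gene, read 1311, 939 and 1860 in PU.1 ki/ki against 1568, 153 and 232 in wild type and differed by 1.78, but by -0.25 against wild-type replicate 1 alone. Cdkn1a, the CDK inhibitor p21, read 160, 84 and 73 in PU.1 ki/ki against 196, 261 and 134 in wild type (-0.93 ± 0.41, adjusted p = 0.623), and the stress gene Gadd45b differed by -0.72, both with overlap.

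**Figure D4:**
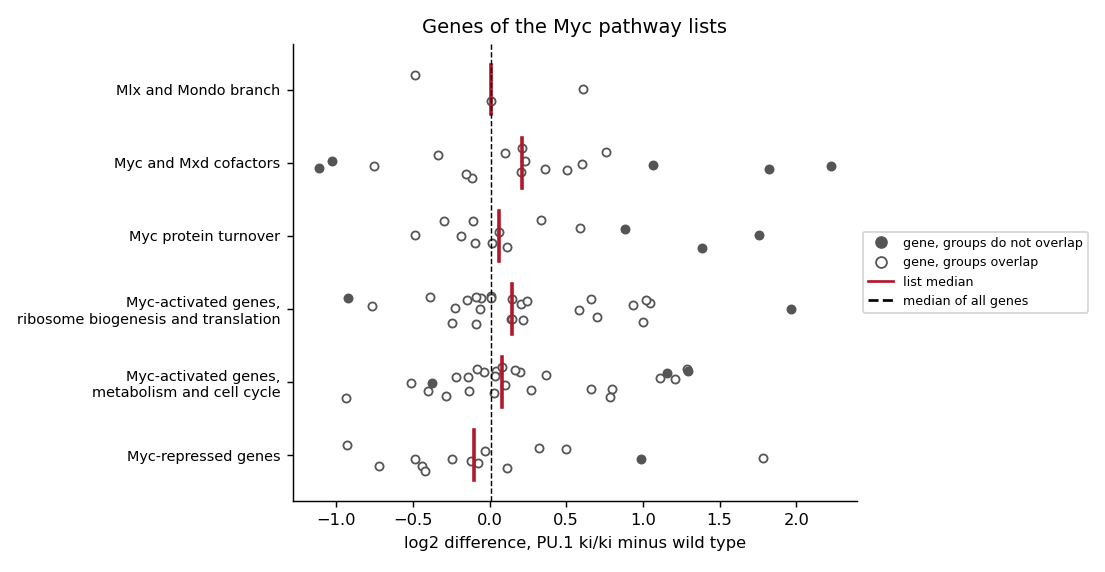
Difference in log2(intensity + 1), PU.1 ki/ki minus wild type, for each gene of the 6 pathway lists, filled where the groups do not overlap, with the list median in red and the median of all genes, 0.01, as a dashed line. List medians run from -0.10 for Myc-repressed genes to 0.21 for cofactors, and each list has genes on both sides of 0.

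The cofactors of Myc and Mxd proteins had 17 of 18 genes measured, 11 higher and 6 lower, with a median of 0.21, 5 (29.4%) without overlap, against 12.8% of all genes, and 0 passing. Kat2a, an acetyltransferase recruited by Myc, read 823, 552 and 940 in PU.1 ki/ki against 320, 293 and 498 in wild type (1.06 ± 0.31, adjusted p = 0.529, limma), and 1.23 against wild-type replicate 1 alone. Hdac1, a deacetylase of the repressor complex that Mxd proteins recruit, read 1001, 880 and 1245 in PU.1 ki/ki against 829, 204 and 145 in wild type (1.82 ± 0.70, adjusted p = 0.602), and 0.31 against wild-type replicate 1 alone. Sin3a, the scaffold of that same complex, lay on the other side, with 644, 639 and 320 in PU.1 ki/ki against 1032, 724 and 1793 in wild type (-1.11 ± 0.46, adjusted p = 0.613). Hdac1 and Sin3a thus had opposite signs on their brightest probe sets, and neither passed. Hdac2 (0.60) and Sin3b (0.10), of the same list, overlapped between groups. Bin1, a Myc-interacting adaptor, read 134, 88 and 71 in PU.1 ki/ki against 296, 156 and 157 in wild type (-1.03 ± 0.37, adjusted p = 0.592). The fifth gene without overlap, Ep400, a chromatin remodeller, was named after its values were seen and read 1285, 877 and 1274 in PU.1 ki/ki against 467, 484 and 61 in wild type (2.23), or 1.24 without wild-type replicate 3.

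Genes of Myc protein turnover had 13 of 14 measured, 8 higher and 5 lower, with a median of 0.06, 3 (23.1%) without overlap, against 12.8% of all genes, and 0 passing. Aurka, a mitotic kinase that stabilises N-Myc, read 298, 169 and 285 in PU.1 ki/ki against 143, 86 and 64 in wild type (1.39 ± 0.39, adjusted p = 0.517, limma). The ubiquitin ligase gene Trim32 read 858, 461 and 416 in PU.1 ki/ki against 415, 287 and 35 in wild type (1.75 ± 1.02), a separation of 416 in PU.1 ki/ki from 415 in wild type at its narrowest. Without wild-type replicate 3 it differed by 0.67, and by 0.40 against wild-type replicate 1 alone. Gsk3b, the kinase that marks Myc for degradation, was named after its values were seen and read 1382, 1387 and 1355 in PU.1 ki/ki against 1341, 248 and 1242 in wild type. Its difference of 0.88 came with the low value on wild-type replicate 2. Lower values with overlap were those of the phosphatase subunit Ppp2r5a (-0.49) and the ligase Huwe1 (-0.11). The parallel Mlx branch, whose proteins sense metabolites, had Mlx at 0.61, Mlxip at -0.49 and Mlxipl near the minimum at 0.01, all with overlap. Mlx was -0.21 without wild-type replicate 3, where it read 11.

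Of the markers of the sorted cell type 10 of 12 were measured. Their summed intensity was 9358 to 11787 in PU.1 ki/ki and 7489 to 8833 in wild type, higher in PU.1 ki/ki without overlap. Singly, 7 of these markers were higher and 3 lower, and 0 passed. Only Tek, at 1.04, had no overlap by itself (10% of the list, against 12.8% of all genes). Slamf1, which encodes the gate's CD150, read 696, 1525 and 170 in PU.1 ki/ki against 440, 54 and 42 in wild type, and Cd48, of the negative gate, read 230, 90 and 290 in PU.1 ki/ki against 704, 193 and 75 in wild type. Neutrophil and monocyte markers, among them Mpo and S100a8, were bright in both groups, with sums of 18336 to 24183 in PU.1 ki/ki against 22563 to 30657 in wild type, which overlap. Erythroid markers summed to 594 to 1373 in PU.1 ki/ki against 536 to 1590 in wild type, and megakaryocyte markers to 2009 to 5864 in PU.1 ki/ki against 1516 to 2191 in wild type. B cell markers summed to 352 to 426 in PU.1 ki/ki against 289 to 847 in wild type, and T and NK cell markers to 205 to 311 in PU.1 ki/ki against 292 to 354 in wild type. For multipotent progenitor markers the sums were 2109 to 3182 in PU.1 ki/ki against 1089 to 2691 in wild type. All of these sums overlapped between groups. Of the 39 markers in these lists 8 (20.5%) were without overlap singly, 3 higher and 5 lower, against 12.8% of all genes. The 3 higher ones, named after their values were seen, were Cd34, a progenitor surface protein, at 3.09, the erythroid factor gene Klf1 at 2.57 and Vwf, of platelets and HSCs, at 1.38. The 5 lower ones, named in the same way, were Ctsg at -1.52, Cd3e at -1.25, S100a8 at -0.45 and Cd79a at -0.44, with Hba-a1, of the erythroid list like Klf1, at -0.69. Cd34 read 1152, 583 and 1196 in PU.1 ki/ki against 98, 64 and 200 in wild type. Macrophage markers summed to 452 to 1099 in PU.1 ki/ki and 237 to 382 in wild type, without overlap. C1qb read 567, 119 and 73 within the PU.1 ki/ki sums of 1099, 452 and 473, and was at the minimum of 10 on every wild-type array. Without C1qb the sums would overlap between groups. Of the 7 macrophage markers 5 were higher and 2 lower, and 5 were dim. Singly, C1qb and C1qc had no overlap (28.6%, against 12.8% of all genes), and 0 passed. No marker was at the minimum on all 6 arrays, and the part of these cell types in the Myc difference was not tested.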

How the data were processed

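The authors deposited a table of array intensities. Per the submitters' processing notes the tool was RMA, whose version is not given in the sources used here. Values were linear whole numbers between 10 and 27574. RMA usually gives log2 values, and neither a conversion nor the floor of 10 is stated by the labels. Sample titles gave the groups. No further scaling was applied, and 64 control probe sets of 45101 were left out. No column of the table was unused (0).

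Values were tested as log2(intensity + 1) with limma 3.58.1 (R 4.3.3), genotype as the only term, Benjamini-Hochberg adjustment over 45037 probe sets and a threshold of 0.05. The steps were tested on simulated data. For lists, the brightest probe set stood for a gene. Gene symbols came from the platform annotation and promoters from a RefSeq table (GRCm38.p6). Figures used matplotlib 3.10.9. Besides the network, the text names Spi1, Xist, in each pathway list the 2 higher and 2 lower genes with the lowest p, and the 5 genes most like Myc. Some cell type markers are named as well. Ep400, Gsk3b and the markers without overlap were named after their values were seen. The members, lists and alternatives were chosen with earlier results of these data known. Alternatives were scaling, a dim filter, the pseudocount, the variance prior, array weights, a replicate block and arrays left out. The number of arrays limits the precision.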

Additional observations from a re-analysis of the deposited data

How the results depend on the processing

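Under each scaling, variance, filter, weighting and array choice tried, 0 of the probe sets, members and list genes passed an adjusted p of 0.05 in limma. Before adjustment 3731 probe sets had p under 0.05, 1701 with dim probe sets left out, and 2535 to 7183 with 1 array left out, the highest without wild-type replicate 1. Of the members 3 reached this level, 1 with dim probe sets left out, with a trended and robust prior or without PU.1 ki/ki replicate 1, and 8 without wild-type replicate 1. Deviations of same-numbered arrays from their group means correlated at -0.017 to 0.021, against -0.015 to 0.029 for the other pairs. That gives no sign of pairing by replicate number, but so few arrays cannot exclude it. With the replicate block Myc kept 0.84 and had an adjusted p of 0.664.

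Signs turned in several members whose differences were small against their error, and the cause was not tested. With all probe sets of a gene averaged, Mycn was 0.039, Mycl -0.18, Mxd4 0.066 and Mxi1 0.061. Against wild-type replicate 1 alone Mycl 1422087_at was -0.25, Mxd4 1434378_a_at 0.15, Mga 1434746_at -0.69, Mxd1 1455104_at -0.72 and Spi1 0.18. Mxd1 1455104_at was also -0.16 after quantile normalization, -0.097 after centring, -0.018 with a pseudocount of 16 and -0.076 with array weights. Mga 1433012_at was -0.056 after centring, and Spi1 0.0088 with array weights. With 1 array left out, Max ran from -0.77 to 0.16, Mxd1 1434830_at from -0.43 to 0.97 and 1455104_at from -0.72 to 0.38. Mxd3 1438847_at ran from -1.12 to 0.84 and 1448878_at from -0.49 to 0.19. Mxd4 1434379_at ran from -0.71 to 0.37 and 1422574_at from -0.13 to 0.61. Mxi1 1425732_a_at ran from -0.29 to 0.22, Mnt 1418193_at from -0.76 to 0.036, Mga 1433012_at from -0.31 to 0.33 and Spi1 from -0.14 to 0.052.

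Of the list medians, that of the cofactors was 0.07 after quantile normalization and 0.03 to 0.34 with 1 array left out. For ribosome and translation genes it was -0.046 without wild-type replicate 2 and -0.016 against replicate 1 alone. For metabolism and cell cycle genes it was -0.031 after quantile normalization, -0.028 after centring and -0.25 against wild-type replicate 1 alone. For turnover genes it was -0.0816 after quantile normalization, -0.0475 after centring and 0.30 without wild-type replicate 3. That of the Mlx branch was -0.21 without wild-type replicate 3 and -0.24 against replicate 1 alone, and that of Myc-repressed genes 0.085 without wild-type replicate 1. Precision was limited by 3 arrays a group, and differences near the floor of 10 by the signal.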

Other observations

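Genes were also divided by whether a promoter window of the RefSeq table (GRCm38.p6) holds the E-box CACGTG. Of 14452 genes with both an array value and a window, 1479 (10.2%) held the E-box, and their median difference, PU.1 ki/ki minus wild type, was 0.05 on the log2 scale, against 0.01 for the 12973 without. Of the ribosome and translation genes activated by Myc 5 of 22 (22.7%) held it, with 4 higher and 1 lower, and of the metabolism and cell cycle genes 6 of 24 (25%) did, with 3 higher and 3 lower. The share was also above that of all genes for Myc-repressed genes, at 3 of 9 (33.3%), with 1 higher and 2 lower. It was 1 of 15 (6.67%) for cofactors, 1 of 12 (8.33%) for turnover genes and 2 of 3 for the Mlx branch. These counts are descriptions with no test.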
